A study of Mus musculus with 9 samples.

Results

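The D cyclins, their G1 kinases and the inhibitors of these kinases were examined in osteocyte-like cells co-cultured with unstimulated or interleukin-1β-stimulated chondrocytes. The set held 10 genes chosen by name from 56748 genes in the count table: the D cyclins Ccnd1, Ccnd2 and Ccnd3, the kinases Cdk4 and Cdk6, the CIP/KIP inhibitors Cdkn1a, Cdkn1b and Cdkn1c, and the INK4 inhibitors Cdkn2a and Cdkn2c. The rule uses names and no measured value, but the members were chosen with earlier results of these data known. Of these genes, 9 passed the filter on low counts and were tested, and Cdkn1c did not. At 48 h all 3 D cyclins and Cdk6 fell while Cdkn1b, Cdkn2a and Cdkn2c rose, and Ccnd1, which changed most, fell by 59.1%. Cdk4 also passed as lower, by a small margin, and Cdkn1a did not pass. Thus 8 of the 9 passed at 48 h, where 46.4% of all genes did. At 24 h the D cyclins had not passed the test. Cdkn2a and Cdk4 were below control and Cdkn2c above it, so 3 of the 9 passed, where 6.15% of all genes did.

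RNA sequencing covered 9 libraries in 3 groups of 3, all from the mouse osteocyte-like line MLO-Y4, which grew on collagen-coated plates and shared transwells with primary chondrocytes of C57BL/6J pups. MLO-Y4 came from a mouse carrying a T antigen transgene driven by the osteocalcin promoter, and T antigen is known to bind the retinoblastoma protein and p53, which act downstream of several of the genes described here. In the control group the chondrocytes were unstimulated. In the 24 h and 48 h groups the chondrocytes had first received 10 ng/mL interleukin-1β for 6 h, and co-culture then lasted 24 h or 48 h. The labels give no culture time for the control group, so stimulation and time cannot be told apart in any comparison with control. Between 24 h and 48 h, length of exposure and time in culture cannot be told apart either. The labels also name the line of the 48 h samples MLO-Y5, MLO-Y6 and MLO-Y7, whereas the protocols speak of MLO-Y4 throughout. No label states that the samples of a group were separate cultures, so p-values measure the spread between these samples, which may be technical.

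D cyclins bind Cdk4 or Cdk6 when growth signals arrive, and the active kinase phosphorylates the retinoblastoma protein, which releases E2F factors and lets the cell enter S phase. INK4 proteins bind the kinases and keep D cyclins off them. CIP/KIP proteins bind cyclin and kinase together, block the Cdk2 complexes that act later, and also help D cyclins and Cdk4 to assemble. In the skeleton, osteocytes are regarded as differentiated cells that have left the cell cycle, while MLO-Y4 cells divide in culture.

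Total counts per library were 12250628–15956441 in control, 14440454–15558585 at 24 h and 16458398–18515456 at 48 h, and mitochondrial genes took 2.58% to 2.81% of them. Osteocyte identity was checked with 21 marker genes of osteocytes and osteoblasts. Gja1 and Pdpn were well expressed, with control means of 1497 and 212.0 CPM (counts relative to the scaled library total). Sost, Mepe, Fgf23, Ibsp, Dkk1 and Ptprz1 had at most 3 counts in any library, and Dmp1 reached 6. The summed level of the list was 8251 to 8391 CPM in control, 8490 to 8712 at 24 h and 7881 to 7934 at 48 h. Of its genes 14 were tested, of which 4 passed as higher than control at 48 h and 6 as lower (22% and 24.4% of all genes did so). Spp1 was the largest part of the sum, with group means of 3877, 4100 and 2740 CPM in control, at 24 h and at 48 h. Spp1 was among those lower at 48 h, and Gja1 and Pdpn were among those higher. Among 20 chondrocyte markers, Acan was at 0 in every library and Col2a1 had at most 7 counts, and 8 of the 20 had no more than 3 counts. The summed level of this list was nevertheless higher at 48 h (2309 to 2378 CPM) than in control (1788 to 1863 CPM) or at 24 h (1703 to 1798 CPM). Most of that sum was Prg4, the joint lubricant, with group means of 1574, 1491 and 2044 CPM in control, at 24 h and at 48 h. At 48 h 5 of the 8 tested chondrocyte markers passed as higher than control and 1 as lower, beside the same shares of all genes. Sox9 and Sox5, with control means of 111.6 and 123.4 CPM, were among those higher, as was Prg4. The part of these markers in the results below was not tested.

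Stretches just upstream of 3 start sites are shown because Cdkn2a and Cdkn1b were the inhibitors with the largest rise at 48 h, and because Cdkn2a has separate starts for its 2 proteins. RefSeq promoter windows (build GRCm38.p6) were present for 7 of the 10 genes, in 11 windows of 250 bases before the start. Ccnd1, Ccnd2 and Cdkn1c had no entry. Each sequence was located in GRCm39 by an exact match and is written 5′ to 3′ on the strand of the gene, with capitals marking a GC box (GGGCGG) or an E2F motif (TTTNGCGC), searched on both strands. The distal Cdkn2a stretch, which precedes the p19Arf transcript, lies at chr4:89212891-89213106 on the minus strand, without the annotated exon bases of the window. The proximal stretch precedes the p16Ink4a transcript at chr4:89200430-89200679 on the minus strand. The Cdkn1b stretch lies at chr6:134897114-134897363 on the plus strand.
Cdkn2a distal start: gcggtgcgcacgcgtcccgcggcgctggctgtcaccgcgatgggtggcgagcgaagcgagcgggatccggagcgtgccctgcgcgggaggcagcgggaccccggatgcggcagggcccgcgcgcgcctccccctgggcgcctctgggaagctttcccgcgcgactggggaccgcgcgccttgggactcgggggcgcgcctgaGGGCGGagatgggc
Cdkn2a proximal start: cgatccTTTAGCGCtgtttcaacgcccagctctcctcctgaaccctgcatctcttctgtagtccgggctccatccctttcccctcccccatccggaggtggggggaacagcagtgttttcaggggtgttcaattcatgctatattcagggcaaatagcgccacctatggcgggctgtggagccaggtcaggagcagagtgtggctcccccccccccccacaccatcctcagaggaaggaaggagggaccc
Cdkn1b: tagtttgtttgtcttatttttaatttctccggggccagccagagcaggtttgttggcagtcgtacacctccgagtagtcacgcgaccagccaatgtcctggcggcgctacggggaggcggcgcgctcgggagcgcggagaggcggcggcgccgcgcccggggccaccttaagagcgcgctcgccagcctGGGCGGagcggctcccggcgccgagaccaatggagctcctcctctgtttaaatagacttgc

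The proximal Cdkn2a stretch held the 1 match to the E2F motif among the 11 windows, a motif found in 1.13% of all 32851 windows in the table. GC boxes occurred in 7 of the 11 windows, in Ccnd3, Cdk4, Cdkn1a, Cdkn1b, Cdkn2a and Cdkn2c, against 32.7% of all windows. A TATA box (TATAAA) was found in the Cdk6 window and in 12.4% of all windows. E boxes (CACGTG), the sequence bound by MYC with MAX, occurred in the Cdk4 and Cdk6 windows and in 6.02% of all windows. No window held a cyclic AMP response element (TGACGTCA, 1.55% of all windows) or an AP-1 motif (TGANTCA, 6.75%). These matches describe the letters in the windows and are not binding sites.

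The first comparison asked how the osteocyte-like cells differed from control after 48 h with stimulated chondrocytes. Of the 9 tested genes, 8 passed the test (edgeR quasi-likelihood, Benjamini-Hochberg adjusted p under 0.05), 3 higher and 5 lower. Over all genes, 46.4% passed, 22% higher and 24.4% lower. Libraries of the 2 groups were fully separate for 8 of the 9 genes, against 53% of all genes. The median log2 fold change of the 9 was -0.12 and that of all genes -0.002, while the median absolute log2 fold change was 0.32 against 0.25. The plot of levels by library shows each gene.

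**Figure D1:**
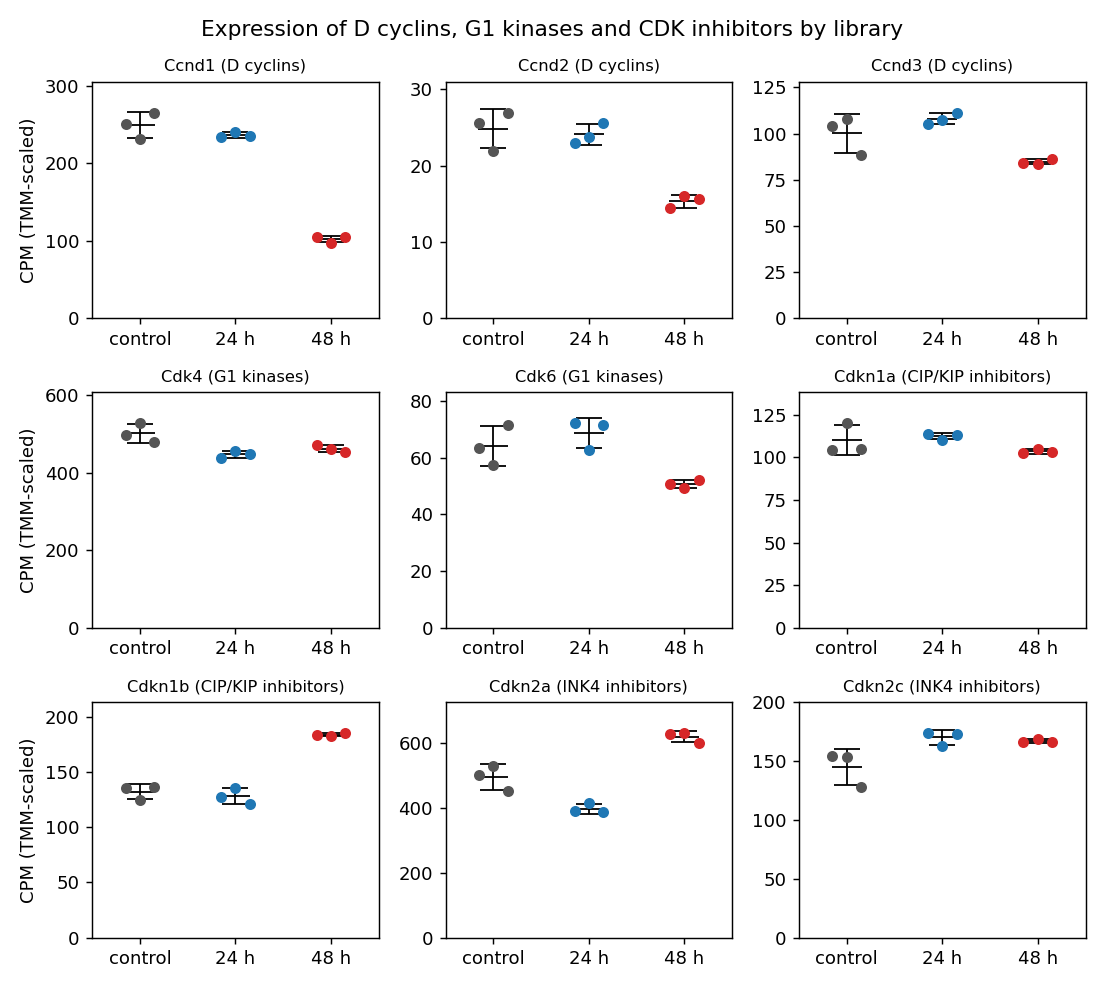
CPM (vertical axes, each starting at 0) of the 9 tested genes in control, 24 h and 48 h, with points for libraries and bars for the mean ± SD of 3. The 48 h libraries of Ccnd1 sit between 96.8 and 104.4 CPM, below every other library, and those of Cdkn1b sit between 182.8 and 185.5 CPM, above every other library.

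Ccnd1, the D cyclin most tied to mitogen signalling (chr7:144483668-144493662, minus strand, GRCm39), had 250.7, 231.2 and 264.5 CPM in the control libraries. At 24 h its values were 233.4, 240.2 and 235.4 CPM. At 48 h they were 104.4, 96.8 and 104.0 CPM. The 48 h libraries lay far below the rest, and control and 24 h overlapped. Mean levels were 248.8 ± 16.7 CPM in control, 236.3 ± 3.52 at 24 h and 101.7 ± 4.25 at 48 h (SD, n = 3). In bulk RNA, fewer cells that express a gene and less of its RNA per cell cannot be told apart. The log2 fold change at 48 h was -1.29 (SE 0.06, edgeR adjusted p = 3.71e-12). At 24 h it was -0.07 (95% interval -0.19 to 0.04, edgeR adjusted p = 0.515). LTO1, which lies on the other strand and shares 1771 bases with the Ccnd1 locus, had 249 to 372 counts per library and a log2 fold change of -0.02 at 48 h, so its counts did not move with those of Ccnd1.

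Ccnd2 (chr6:127102125-127129156, minus strand), the scarcest D cyclin here, measured 25.6, 22.0 and 26.9 CPM in control. The 24 h libraries gave 23.0, 23.7 and 25.7 CPM, and the 48 h libraries 14.4, 16.0 and 15.7 CPM. Again only the 48 h libraries stood below every control library. Ccnd2 fell by 38.3% in the fitted comparison with control, a log2 fold change of -0.70 (SE 0.09, edgeR adjusted p = 5.76e-06). The 24 h value was -0.05 (95% interval -0.23 to 0.14, edgeR adjusted p = 0.850).

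Ccnd3 (chr17:47815976-47910616, plus strand), a D cyclin that often persists in differentiated tissue, had 104.0, 107.9 and 88.1 CPM in control and 105.3, 107.5 and 111.1 CPM at 24 h. Its 48 h values were 84.1, 83.6 and 86.2 CPM. These lay below all control libraries, though close to the third. The decrease at 48 h was smaller than for the other D cyclins, with a log2 fold change of -0.24 (SE 0.07, edgeR adjusted p = 0.00586). At 24 h the value was 0.11 (95% interval -0.03 to 0.25, edgeR adjusted p = 0.401). Bysl, a ribosome biogenesis gene on the other strand that shares 361 bases with the Ccnd3 locus, had 478 to 978 counts per library and a log2 fold change of -0.90 at 48 h (edgeR adjusted p = 3.96e-08). Whether counting used the strand is not stated in the sources used here, and the part of Bysl reads in the Ccnd3 value was not tested.

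Cdk4, the more abundant of the G1 kinases (chr10:126899403-126903789, plus strand) had 498.2, 528.5 and 478.9 CPM in control. Its 24 h libraries measured 437.5, 456.7 and 448.6 CPM, and its 48 h libraries 472.7, 460.8 and 453.3 CPM. Every co-culture library with stimulated chondrocytes lay below every control library, by a small margin. The log2 fold change was -0.17 at 24 h (SE 0.05, edgeR adjusted p = 0.0355) and -0.12 at 48 h (SE 0.05, edgeR adjusted p = 0.0394). The call at 48 h was kept in only 3 of 17 alternative settings and the call at 24 h in 6 of 17. Leaving out control replicate 2, the highest library, gave -0.07 at 48 h (edgeR adjusted p = 0.194). Tspan31, on the other strand over 641 bases, had 1029 to 1598 counts per library and log2 fold changes of 0.09 and 0.04.

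Cdk6 (chr5:3391485-3581008, plus strand), the alternative partner of the D cyclins, had 63.3, 57.6 and 71.7 CPM in control, 72.3, 62.6 and 71.4 CPM at 24 h, and 50.7, 49.3 and 52.3 CPM at 48 h. The 48 h libraries were the lowest, and control and 24 h overlapped. Cdk6 fell by 21.0% at 48 h (log2 fold change -0.34, SE 0.08, edgeR adjusted p = 0.00138). The 24 h value was 0.10 (95% interval -0.06 to 0.26, edgeR adjusted p = 0.551).

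Among CIP/KIP inhibitors, Cdkn1a, which encodes p21 and is a classical p53 target (chr17:29309950-29319701, plus strand), measured 104.6, 120.2 and 105.1 CPM in control. At 24 h it had 114.0, 110.4 and 113.3 CPM, and at 48 h 102.3, 104.7 and 103.4 CPM. Control overlapped with both other groups. The log2 fold changes over control were 0.03 at 24 h (95% interval -0.09 to 0.16, edgeR adjusted p = 0.820) and -0.09 at 48 h (95% interval -0.21 to 0.04, edgeR adjusted p = 0.243). Without control replicate 2, the highest library, the 48 h value was -0.01 (edgeR adjusted p = 0.917). Cdkn1a was the only tested gene of the set that passed in no comparison.

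Cdkn1b encodes p27, which holds cells out of S phase and accumulates in arrested cells (chr6:134897364-134902476, plus strand). It had 135.7, 124.4 and 136.8 CPM in control and 127.2, 135.9 and 121.4 CPM at 24 h. In the 48 h libraries it had 183.2, 182.8 and 185.5 CPM. The 48 h libraries were above all others and close to each other, with a mean of 183.8 ± 1.48 CPM against 132.3 ± 6.86 in control (SD, n = 3). Cdkn1b rose by 38.9% at 48 h (log2 fold change 0.47, SE 0.06, edgeR adjusted p = 1.36e-06). At 24 h the value was -0.05 (95% interval -0.16 to 0.07, edgeR adjusted p = 0.727).

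Cdkn1c, which encodes p57 (chr7:143012076-143014787, minus strand), had 0 counts in the control and 24 h libraries and 1, 0 and 1 counts at 48 h. A count of 0 allows up to 3 counts, which corresponds to 0.160 to 0.245 CPM across libraries and covers counting error only. No difference in Cdkn1c was detectable at this depth.

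Cdkn2a (chr4:89192708-89212890, minus strand) encodes the Cdk4 and Cdk6 inhibitor p16Ink4a and, from the distal start, p19Arf, which restrains Mdm2 and so stabilises p53. It moved in opposite directions at the 2 times. Control libraries had 503.0, 529.9 and 452.4 CPM. The 24 h libraries had 389.3, 414.1 and 387.1 CPM, and the 48 h libraries 627.5, 631.7 and 600.02 CPM. No 2 groups overlapped, with 24 h lowest and 48 h highest. Cdkn2a fell by 19.8% at 24 h (log2 fold change -0.32, SE 0.05, edgeR adjusted p = 0.00068) and rose by 25.2% at 48 h (log2 fold change 0.32, SE 0.05, edgeR adjusted p = 6.28e-05). Both calls held in 17 of 17 alternative settings. GENCODE annotates a proximal transcript of 852 bases in 3 exons and a distal transcript of 895 bases in 3 exons, which share 575 bases, so the count per gene does not separate p16Ink4a from p19Arf.

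Cdkn2c, which encodes the INK4 inhibitor p18 (chr4:109518073-109524386, minus strand), had 154.2, 153.2 and 127.7 CPM in control. It measured 174.0, 162.8 and 173.2 CPM at 24 h and 166.2, 169.0 and 166.0 CPM at 48 h. All libraries of both co-culture times lay above control, where replicate 3 was the lowest. The log2 fold change was 0.23 at 24 h (SE 0.06, edgeR adjusted p = 0.0391) and 0.20 at 48 h (SE 0.06, edgeR adjusted p = 0.0138). Without control replicate 3 these values were 0.15 (edgeR adjusted p = 0.0766) and 0.13 (edgeR adjusted p = 0.0444). The 24 h call was kept in 8 of 17 alternative settings and the 48 h call in 16 of 17.

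At 24 h against control 3 of the 9 tested genes passed, 1 higher (Cdkn2c) and 2 lower (Cdk4 and Cdkn2a), while 6.15% of all genes passed, 3.25% higher and 2.9% lower. Groups did not overlap for 3 of the 9, against 21.5% of all genes. The median absolute log2 fold change of the 9 was 0.10, and that of all genes 0.11. Both comparisons use the same control libraries. The plot of changes over control gives their values side by side.

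**Figure D2:**
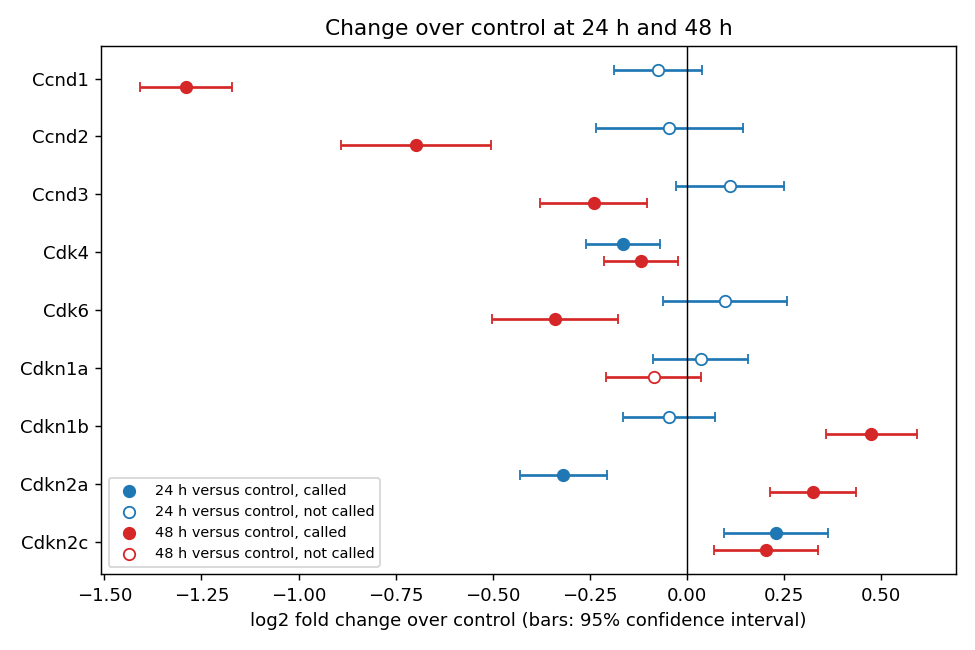
Log2 fold change over control (horizontal axis) of the 9 tested genes at 24 h and 48 h, with bars for the 95% interval and filled points for genes that passed the test. Ccnd1 lies at -1.29 and Ccnd2 at -0.70 at 48 h, and Cdkn2a lies at -0.32 at 24 h and at 0.32 at 48 h.

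Between 48 h and 24 h, both with stimulated chondrocytes, there were 6 calls among the 9, 2 higher and 4 lower, against 49.1% of all genes (23.7% higher and 25.4% lower). The groups were fully separate for 7 of the 9, against 59.5% of all genes. Ccnd1 (log2 fold change -1.22), Ccnd2 (-0.65), Cdk6 (-0.44) and Ccnd3 (-0.35) fell, and Cdkn2a (0.64) and Cdkn1b (0.52) rose, each with an edgeR adjusted p of 0.000212 or less. Cdkn1a did not pass although its libraries did not overlap (log2 fold change -0.12, edgeR adjusted p = 0.0933). Cdk4 (0.05, 95% interval -0.05 to 0.14) and Cdkn2c (-0.03, 95% interval -0.16 to 0.11) did not pass. In the joint test of the 3 groups, which 51.9% of all genes passed, 8 of the 9 passed and Cdkn1a did not (edgeR adjusted p = 0.191).

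Levels were compared between genes only per length, as CPM per kilobase of the gene length given by the authors. This length can exceed that of a transcript, as for Cdkn2a, with 1172 bases against transcripts of 852 and 895 bases. A longer gene length lowers the value per kb. Which transcripts were present was not tested, so the order of genes, shares and ratios below hold for these lengths only. In control, Cdkn2a was the most abundant at 422.4 CPM per kb, above 99.6% of tested genes, followed by Cdk4 at 154.5. Cdkn2c (54.0) and Ccnd1 (52.8) came next and overlapped, as did Cdkn1a (31.0) and Cdkn1b (29.1). Ccnd3 (11.4), Cdk6 (4.59) and Ccnd2 (2.64) were lower and did not overlap their neighbours. The order of means was the same at 24 h, with no overlap between neighbours. At 48 h Ccnd1 dropped below Cdkn1a, to 21.6 CPM per kb, while Cdkn1b ranked just below Cdkn2c at 40.4, and no neighbours overlapped. Ccnd1 thus lay above 93.2% of tested genes in control and above 81.5% at 48 h.

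Since the D cyclins fell to different degrees, their proportions were compared. The gene lengths used were 4709 bases for Ccnd1, 9409 for Ccnd2 and 8775 for Ccnd3, and the shares depend on them. Ccnd1 made up 79.0% ± 2.17 of D cyclin transcripts per length in control, 77.1% ± 0.590 at 24 h and 65.7% ± 0.967 at 48 h (SD, n = 3). Ccnd3 accounted for 17.1% ± 2.40, 18.9% ± 0.395 and 29.3% ± 0.593, and Ccnd2 for 3.94% to 4.97% on average. The Ccnd1 share was lower by 13.3 percentage points at 48 h than in control, with no overlap (two-sided exact permutation p = 0.1, adjusted p = 0.18 over 9 comparisons). That is the smallest p that 3 against 3 libraries can give, so no such comparison can reach 0.05. The 24 h share differed from control by -1.81 points (two-sided exact permutation p = 0.3, adjusted p = 0.3), and by -0.625 points without control replicate 3 or -2.76 without control replicate 2.

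Summed over the 3 genes, D cyclin transcripts were at 66.9 ± 2.79 CPM per kb in control, 65.1 ± 0.931 at 24 h and 32.9 ± 0.952 at 48 h (SD, n = 3). The inhibitors summed to 536.5 ± 39.4, 461.7 ± 11.5 and 660.5 ± 14.8 CPM per kb. Their ratio to D cyclins was 8.05 ± 0.905 in control, 7.10 ± 0.146 at 24 h and 20.1 ± 0.975 at 48 h. The 48 h ratio lay above all others (two-sided exact permutation p = 0.1 against control and against 24 h, adjusted p = 0.18). The size of the ratio depends on the gene lengths used. Cdkn2a supplied 78.7% of inhibitor transcripts in control, 73.3% at 24 h and 80.1% at 48 h. Its count does not separate p16Ink4a from p19Arf, which is not a kinase inhibitor, and the part of p19Arf was not tested. Without Cdkn2a the ratio was 1.71 ± 0.152, 1.89 ± 0.0516 and 4.01 ± 0.139, again highest at 48 h. Cdk6 was a minor part of the kinase transcripts, with 2.90% ± 0.447, 3.45% ± 0.322 and 2.49% ± 0.106, and its share at 48 h overlapped control (two-sided exact permutation p = 0.2, adjusted p = 0.225). That difference was -0.411 percentage points, and -0.181 without control replicate 3. Against 24 h the Cdk6 share was lower by 0.961 points with no overlap (two-sided exact permutation p = 0.1, adjusted p = 0.18). Bars for each library show the D cyclin sums and the ratio.

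**Figure D3:**
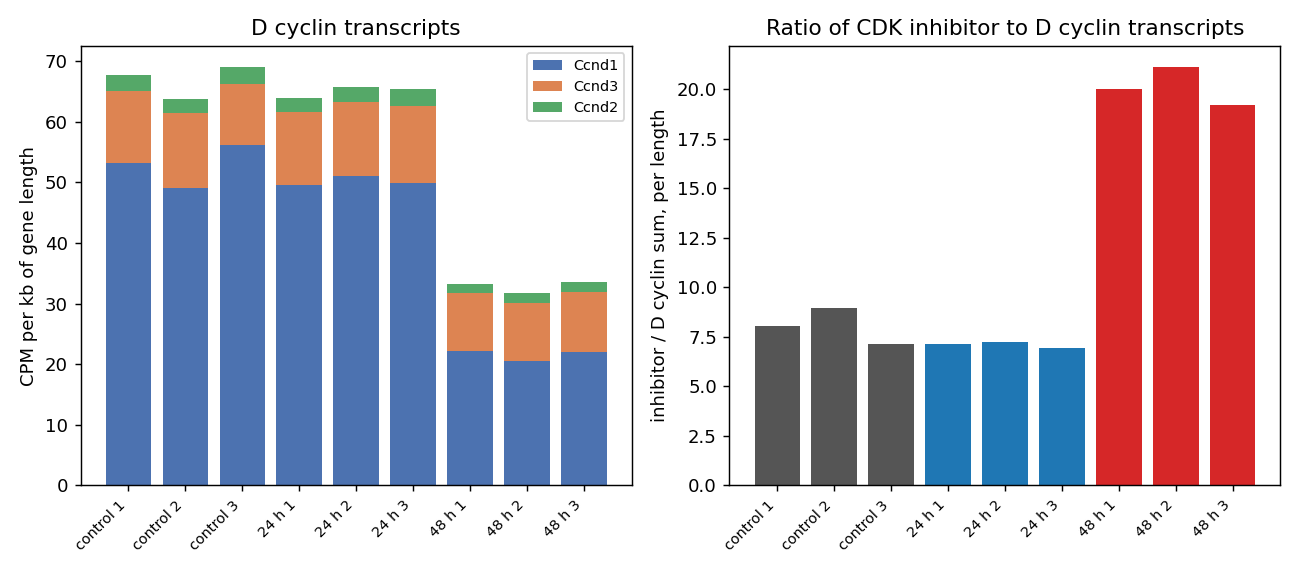
Left, D cyclin transcripts in CPM per kb of gene length, stacked by gene for each of the 9 libraries; right, the ratio of inhibitor to D cyclin transcripts, also per length. The inhibitor sum holds the whole Cdkn2a count, which does not separate p16Ink4a from p19Arf. The 48 h libraries have D cyclin sums of 31.8 to 33.6 CPM per kb and ratios of 19.2 to 21.1, against sums of 63.7 to 69.1 and ratios of 6.94 to 8.95 in the 6 others.

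Genes around this switch were then described in 7 lists. Over all genes, 22% were higher and 24.4% lower at 48 h against control. The other G1 to S machinery (30 genes, all tested) had 4 genes higher, 15 lower and 11 that did not pass at 48 h against control, with a median log2 fold change of -0.18. Cdk2, the kinase that takes over from Cdk4, went from 102.5 to 121.3 CPM (log2 fold change 0.24, edgeR adjusted p = 0.00125). Its partner Ccne1 fell by 0.36 on the log2 scale (edgeR adjusted p = 0.000189). Rb1, which encodes the retinoblastoma protein, rose from 32.0 to 43.5 CPM (0.44, edgeR adjusted p = 0.000154), and Tfdp2, a partner of E2F, rose by 0.53. Mybl2 (-0.66) and E2f5 (-0.57) were lower. Cdk2 and Ccne1 were chosen after their values were seen, as were the INK4 genes outside the set. Cdkn2b, the neighbour of Cdkn2a that encodes p15, fell from 82.5 to 64.8 CPM at 24 h (-0.35, edgeR adjusted p = 0.00352) and did not pass at 48 h (-0.09, edgeR adjusted p = 0.277). Cdkn2d, which encodes p19Ink4d, was lower at 48 h (-0.38, edgeR adjusted p = 0.00171).

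Of 30 E2F targets of S phase entry, 20 were lower at 48 h, against 24.4% of all genes, and 10 did not pass. The list median was -0.20. None of the 30 was higher by edgeR, 0 at an unadjusted p under 0.05 and 0 by DESeq2, against 22%, 25.1% and 21% of all genes. Rrm2, the ribonucleotide reductase subunit of S phase, fell from 335.1 to 169.0 CPM (-0.99, edgeR adjusted p = 6.82e-12), and the replication initiation gene Mcm10 fell by 0.72 on the log2 scale. Against 24 h, Mcm6, a subunit of the replicative helicase, rose instead (0.21). All 30 genes of G2 and mitosis were lower at 48 h, with a median of -0.61, including the mitotic kinase gene Plk1 (-0.95) and Ccnb1 (-0.82), the cyclin of mitotic entry. At 24 h none of these 30 passed in edgeR, where 6.15% of all genes did. At an unadjusted p under 0.05, 7 of the 30 were higher, against 9.32% of all genes, and DESeq2 called 2 higher, against 3.62%. Among the E2F targets Rrm2 rose at 24 h (0.18, edgeR adjusted p = 0.0162) and no other passed.

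Targets of p53 (25 of 26 tested) had 4 higher, 13 lower and 8 that did not pass at 48 h, with a median of -0.33. Sesn1, which dampens mTORC1 signalling, rose from 56.2 to 106.0 CPM (0.92) after a lower level of 43.8 at 24 h (-0.36), and the death receptor gene Fas rose by 0.75. The nuclease gene Aen (-0.97) and Gtse1 (-0.91), which acts in G2 and at mitosis, fell. Of the growth arrest genes (19 of 20 tested), 9 were higher, 5 lower and 5 did not pass, with a median of 0.10. Beside both lists, 22% of all genes were higher and 24.4% lower at 48 h. Gas1, first described as a gene of growth-arrested fibroblasts, rose from 255.5 to 673.2 CPM (1.40, edgeR adjusted p = 1.70e-11), and Gadd45a rose from 20.2 to 47.1 CPM (1.21). Gadd45g (-0.53) and Btg2 (-0.47) fell. At 24 h Btg1 was higher (0.22) and Gas2 lower (-0.38).

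Turnover genes of D cyclins and inhibitors (19 tested) had 2 higher, 8 lower and 9 that did not pass at 48 h, with a median of -0.09. Dyrk1b, a kinase of quiescent cells that phosphorylates cyclin D1 and p27, was lower at 24 h (-0.37, edgeR adjusted p = 0.0360) and higher at 48 h (0.74, edgeR adjusted p = 2.99e-06). Gsk3b, a kinase that marks cyclin D1 for export and degradation, rose by 0.16. Cryab, part of a ubiquitin ligase for cyclin D1, was lower (-0.81), as was Usp2, a deubiquitinase of cyclin D1 (-0.48). Mitogen inputs (25 of 26 tested) had 7 higher, 11 lower and 7 that did not pass, with a median of -0.14. Myc fell from 127.4 to 81.5 CPM (-0.64, edgeR adjusted p = 1.49e-08), while Mxi1 (0.80), which competes with MYC for MAX, rose. The AP-1 gene Fosl2 was higher at 24 h (0.53) and 48 h (0.80), and Ccn1, a matricellular gene induced by YAP and serum, fell by 1.20 on the log2 scale at 48 h. The lists were chosen with results of these data known. The share of all genes that passed at 48 h was 46.4%, 22% higher and 24.4% lower. The turnover list lay near this share in either direction, but not by direction, with 2 higher and 8 lower of 19. The plot of the 7 lists shows these genes.

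**Figure D4:**
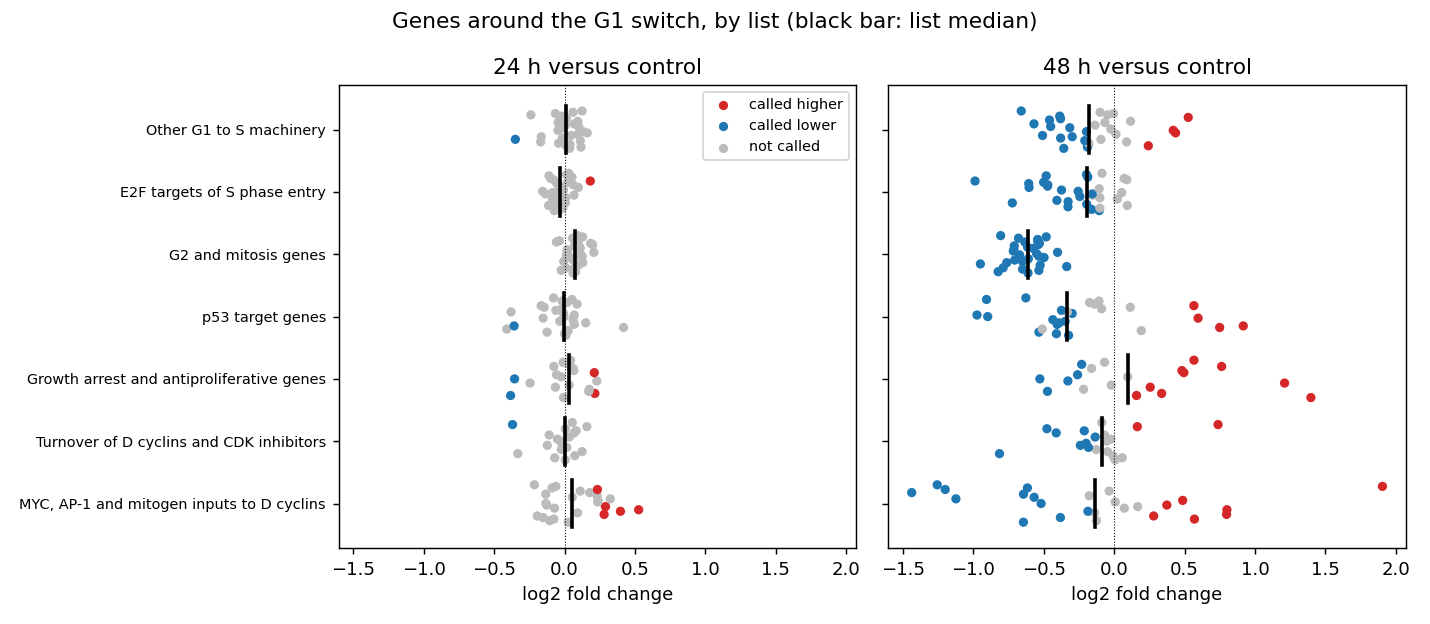
Log2 fold change (horizontal axes) at 24 h and 48 h against control for the tested genes of 7 lists, coloured by call, with a black bar at the list median. At 48 h all 30 genes of G2 and mitosis lie left of 0 with a median of -0.61, while at 24 h that median is 0.07.

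The genes whose levels most resembled those of Ccnd1 over the 9 libraries, by Pearson correlation of log2 CPM, were Chac1 (r = 0.998), which encodes a glutathione-degrading enzyme, Rpp40 (r = 0.997), a subunit of RNase P, and Dkc1 (r = 0.996), which encodes the pseudouridine synthase dyskerin. The 9 points share 3 groups, so these values describe the groups and have no test. Chac1 went from 17.1 CPM in control and 16.7 at 24 h to 6.92 at 48 h, and Dkc1 from 102.7 in control and at 24 h to 49.3.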

How the data were processed

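RNA of MLO-Y4 cells in transwell co-culture with chondrocytes was sequenced in 9 directional libraries, whose origin from separate cultures is not stated. Per the labels and the study's methods, the authors trimmed reads, aligned them to GRCm39 (mm39) with HISAT2 and counted them per gene with featureCounts. The submitters' processing notes give featureCounts 2.06, other sources differ, and RSEM is also named. Use of strand and of multiply mapped reads is not given in the sources used here. The authors deposited raw counts per gene, with coordinates and gene lengths.

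Counts were fitted with edgeR 4.0.16 (limma 3.58.1, R 4.3.3). The filterByExpr function with a minimum count of 10 left 13812 genes, holding 99.9% of reads. Library sizes received TMM factors. A single quasi-likelihood fit took all 9 libraries and had 6 residual degrees of freedom, and p-values were adjusted over all tested genes at 0.05. DESeq2 1.42.0, other scalings and filters, fits of 2 groups, a replicate block, an adjusted p under 0.01 and omission of each library served as alternatives. Shares and ratios were compared by exact permutation tests. The edgeR fit was tested on simulated data in which few genes changed, by more than most members did. Smaller changes were not covered. Replicates differed by more than sampling noise, so none were merged.

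The members and gene lists, assembled by hand from general knowledge, were chosen with earlier results of these data known. The rule named all members, and from each list the 2 higher and 2 lower genes with the largest change at 48 h among those called with 5 CPM or more on average in either group, and 1 in each direction in the other comparisons. It also named the 3 genes most correlated with the member of the largest change. Floors were taken as 3 counts.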

Additional observations from a re-analysis of the deposited data

Results flagged for a closer look

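For 6 of the 9 tested genes, levels differed between 48 h and 24 h in the direct test (edgeR, adjusted over all genes). This is the comparison already given above, in which the shared control cancels. No unstimulated group is labelled with either time, so length of exposure and time in culture cannot be told apart. The log2 fold change at 48 h minus that at 24 h was -1.22 for Ccnd1 (adjusted p = 5.95e-12), -0.65 for Ccnd2 (1.04e-05), -0.35 for Ccnd3 (0.000212) and -0.44 for Cdk6 (0.000109). It was 0.52 for Cdkn1b (3.68e-07) and 0.64 for Cdkn2a (1.45e-08). The libraries of the 2 times did not overlap for any of these 6 genes, nor for 59.5% of all genes. The 6 were selected by the direct test on the same libraries, so this separation adds no support. Among all genes, 49.1% differed in this test. Cdkn2a was the only one of the 6 that passed against control at both times, and its directions were opposite.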

How the results depend on the processing

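The 6 genes Ccnd1, Ccnd2, Ccnd3, Cdk6, Cdkn1b and Cdkn2a kept their calls at 48 h against control, and their calls at 48 h against 24 h, in 17 of 17 alternatives, as did Cdkn2a at 24 h. The number of genes called at 24 h against control was less stable. It was 3 in the analysis reported, 1 (Cdkn2a) in a fit of only the 2 groups compared and 1 at an adjusted p under 0.01, and between 1 and 2 when a library was left out. It was 1 without 24 h replicate 1 or 3, or without any single 48 h replicate, and 2 without any single control replicate or 24 h replicate 2. Leaving out a library gave 7 to 8 calls at 48 h against control (8 reported), 6 to 7 at 48 h against 24 h (6 reported) and 7 to 8 in the joint test (8 reported). Over all genes, 14025 to 14173 were then tested. Of these, 5504 to 6439, 5965 to 7236 and 6144 to 7813 were called in the same order, and 518 to 1475 at 24 h against control. Cdk4 at 48 h was lost with DESeq2 (adjusted p = 0.0773), and its adjusted p ranged from 0.0161 to 0.194. Cdkn1a at 48 h against 24 h passed with only the 2 groups compared (adjusted p = 0.0275) and without control replicate 2 (0.0440).

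Values that were not called turned direction in 2 cases. Ccnd2 at 24 h (-0.05 reported) ranged from -0.12 to 0.018 when a library was left out, with the positive value without control replicate 3, and Cdkn2c at 48 h against 24 h became 0.014 with library size as the only scaling. Other values at 24 h that did not pass kept their direction but moved by over 3 times when a library was left out, to -0.12 to -0.02 for Ccnd1, 0.03 to 0.17 for Ccnd3, 0.03 to 0.19 for Cdk6, 0.002 to 0.11 for Cdkn1a and -0.09 to -0.01 for Cdkn1b. At 24 h the Cdk6 share differed from control by 0.334 to 0.780 points and the inhibitor ratio by -1.40 to -0.497, both nearest 0 without control replicate 2. Over all genes 849 were called at 24 h, and 1475 without control replicate 3. Correlations between the deviations of samples with the same number lay between -0.0493 and 0.0775, with 0 of 9 pairs over 0.1. Of the 9 libraries, 5 correlated best with their own number. These values showed no clear pairing, but with 3 samples per group they cannot settle whether a number marks a shared batch. With a replicate block, 8, 3 and 6 genes were called at 48 h against control, at 24 h against control and at 48 h against 24 h, and 8 in the joint test. Over all 13812 tested genes the block gave 6468, 958, 6810 and 7278 calls in the same order.

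With 1 control, 1 cell line and 3 libraries per group, small changes such as those of Cdk4 are near the limit of detection, and Cdkn1c could not be tested at this depth. RNA levels say nothing of protein.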
